A study of Mus musculus with 12 samples.

Results

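B2m, H2-K1, H2-D1, H2-Aa, H2-Ab1, H2-Eb1 and Cd74 are core genes of classical antigen presentation, measured here in mouse heart. These 7 genes were picked by name for their role, out of 55401 gene IDs listed in the deposited count files. All 7 passed the filter on low counts and were among the 6596 genes tested. The mice were adults of an unstated strain, WT or Rpl3l-/- (KO below), a loss of the ribosomal protein paralogue Rpl3l that heart and skeletal muscle use. Nano-TRAP, a nanopore version of translating ribosome affinity purification, gave for each genotype an Input fraction (RNA of the whole heart homogenate) and an IP fraction (RNA that came down with ribosomes on an anti-HA antibody). There were therefore 4 groups of 3 libraries, WT Input, KO Input, WT IP and KO IP. Hearts for IP were treated with cycloheximide on excision and their RNA was purified on RNeasy columns, whereas Input RNA was purified with TRIzol, so that fraction and purification cannot be told apart in any IP against Input value below. The labels do not say which cells carry the HA tag, nor whether an Input and an IP library came from the same heart.

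Rpl3l itself checks the labels. Levels are given as CPM, a gene's counts relative to the library's total as adjusted by edgeR's TMM factors. Rpl3l stood at 222, 308 and 279 CPM in the WT Input libraries and 269, 271 and 275 in WT IP. In KO it stood at 68.5, 27.0 and 51.1 in Input and 2.33, 2.62 and 8.31 in IP, so the KO libraries lay below the WT libraries in both fractions. KO Input libraries still held 7 to 18 counts of Rpl3l, against 1 to 5 in KO IP, and the source of these counts was not tested. Library totals ran from 356705 to 443177 counts in WT Input, 169359 to 291040 in KO Input, 549358 to 684762 in WT IP and 443525 to 710868 in KO IP. The KO Input group was the shallowest, and 3 counts stand for between 4.22 and 17.7 CPM depending on the library. Cardiomyocyte markers, the check of the tissue label, summed to between 79135 and 94999 CPM in every library. Actc1, the main actin of heart muscle, was nevertheless listed at 0 in all 12 libraries, so a gene listed at 0 in these files cannot be read as not expressed.

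MHC class I molecules show peptides from inside a cell to cytotoxic T cells. Nearly every nucleated cell makes them, from a heavy chain (H2-K1 or H2-D1) and the small invariant light chain beta-2-microglobulin (B2m). MHC class II molecules show peptides from engulfed material to helper T cells, and are made mainly by dendritic cells, macrophages and B cells. Their alpha chain H2-Aa pairs with the beta chain H2-Ab1 to form the I-A molecule, H2-Eb1 is the beta chain of I-E, and Cd74, the invariant chain, occupies the groove of new class II molecules and steers them to the endosome. Class II genes are switched on together through the S-X-Y module of their promoters, on which RFX, CREB and NF-Y assemble and recruit the co-activator CIITA. Class I genes respond in addition to interferons and NF-kappa B. In the healthy heart, resident macrophages are a main carrier of class II molecules.

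In build GRCm38 (GENCODE M21), B2m (ENSMUSG00000060802) lies on chromosome 2 from 122147686 to 122153083, plus strand. Of the other genes 5 lie in the H2 complex on chromosome 17. There H2-Ab1 (ENSMUSG00000073421) runs from 34257689 to 34269419, H2-Aa (ENSMUSG00000036594, minus strand) from 34282744 to 34287823 and H2-Eb1 (ENSMUSG00000060586) from 34305867 to 34316674. H2-K1 (ENSMUSG00000061232, minus strand) runs from 33996017 to 34000347 and H2-D1 (ENSMUSG00000073411) from 35262730 to 35267499. The files give 1 count per gene and library. Annotated genes that overlap a member took almost nothing: Patl2 over B2m and Gm20513 over H2-Eb1 were at 0 counts in every library, and Mir5107 within Cd74 had 1 count in all.

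The bases just upstream of the start sites are shown because class I and class II genes are known for different upstream elements. RefSeq windows (GRCm38.p6) were found for 5 of the 7 genes, H2-Ab1 and Cd74 not among them. The window of H2-D1 is not shown because GENCODE places it inside the gene. The remaining 4 are printed 5′ to 3′ on each gene's own strand, ending 1 base before the transcript, from chr2:122147487-122147685 (plus strand), chr17:34000348-34000547 (minus), chr17:34287824-34288023 (minus) and chr17:34305667-34305866 (plus). Capitals mark the matches described after them, with distances from the RefSeq start site, which for B2m lies 1 base inside the GENCODE gene.
B2m: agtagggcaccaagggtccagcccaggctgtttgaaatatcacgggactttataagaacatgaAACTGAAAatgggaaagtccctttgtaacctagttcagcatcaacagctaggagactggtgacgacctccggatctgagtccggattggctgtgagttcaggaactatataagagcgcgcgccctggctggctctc
H2-K1: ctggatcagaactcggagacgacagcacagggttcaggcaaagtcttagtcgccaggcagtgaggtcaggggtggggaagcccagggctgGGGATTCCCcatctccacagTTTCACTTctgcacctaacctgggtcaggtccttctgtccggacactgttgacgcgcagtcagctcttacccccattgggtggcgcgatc
H2-Aa: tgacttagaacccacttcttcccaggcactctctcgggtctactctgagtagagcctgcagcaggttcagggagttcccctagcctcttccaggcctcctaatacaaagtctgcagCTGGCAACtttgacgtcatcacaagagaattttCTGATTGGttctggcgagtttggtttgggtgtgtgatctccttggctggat
H2-Eb1: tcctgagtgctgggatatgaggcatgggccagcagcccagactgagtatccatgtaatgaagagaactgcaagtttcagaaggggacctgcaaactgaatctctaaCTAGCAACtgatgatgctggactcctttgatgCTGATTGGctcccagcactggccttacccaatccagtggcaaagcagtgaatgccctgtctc

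Capitals in the 2 class II windows are an X1 box (searched as CTNGCAAC) and a Y box (CTGATTGG), the latter holding the CCAAT motif of NF-Y on its other strand. In H2-Aa the X1 box begins 84 bases and the Y box 51 bases before the start. In H2-Eb1 they begin 94 and 62 bases before it, the same order at almost the same spacing. The capitals of B2m are the core of an interferon response element (AANNGAAA), beginning 137 bases before the start. H2-K1 has a kappa B site (GGGATTCCC) beginning 110 bases before the start, and the interferon core on the other strand 90 bases before it. No match of the X1 or Y letters was found in the B2m or H2-K1 window, which says nothing of other spellings of those boxes. The window of H2-D1, not printed, holds the Y letters on the other strand 53 bases before its RefSeq start, the interferon core 150 bases and the kappa B letters 170 bases before it, so the Y letters are not particular to the class II windows. All 4 motifs were searched on both strands with letters chosen with these sequences in view, so the matches are descriptions. Of 32817 promoter windows of 200 bases, 2.44% hold the X1 letters, 3.53% the Y letters, 17.0% the interferon core and 0.213% the kappa B letters.

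Levels of different genes are compared per kilobase of transcript. In WT Input, B2m stood at 638 ± 157 CPM per kb (mean ± SD, n = 3 here and below), clear of the other 6 genes. Cd74 followed at 156 ± 52.4, H2-K1 at 155 ± 63.7, H2-D1 at 125 ± 43.4, H2-Ab1 at 112 ± 31.0 and H2-Aa at 89.3 ± 31.5 CPM per kb. H2-Eb1 was lowest at 49.6 ± 20.3 CPM per kb. Below B2m the mean ± SD ranges of neighbours in this order overlapped. The order shifted around Cd74, H2-K1 and H2-D1. Cd74 stood at 78.6 ± 17.6 CPM per kb in KO Input, under H2-K1 (138 ± 36.5) and H2-D1 (124 ± 16.8). In WT IP it stood at 129.7 ± 6.97, next to H2-K1 (136 ± 32.5) and H2-D1 (133 ± 10.7), and in KO IP at 158 ± 16.5, above H2-D1 (135 ± 29.4) and H2-K1 (121 ± 29.1).

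**Figure D1:**
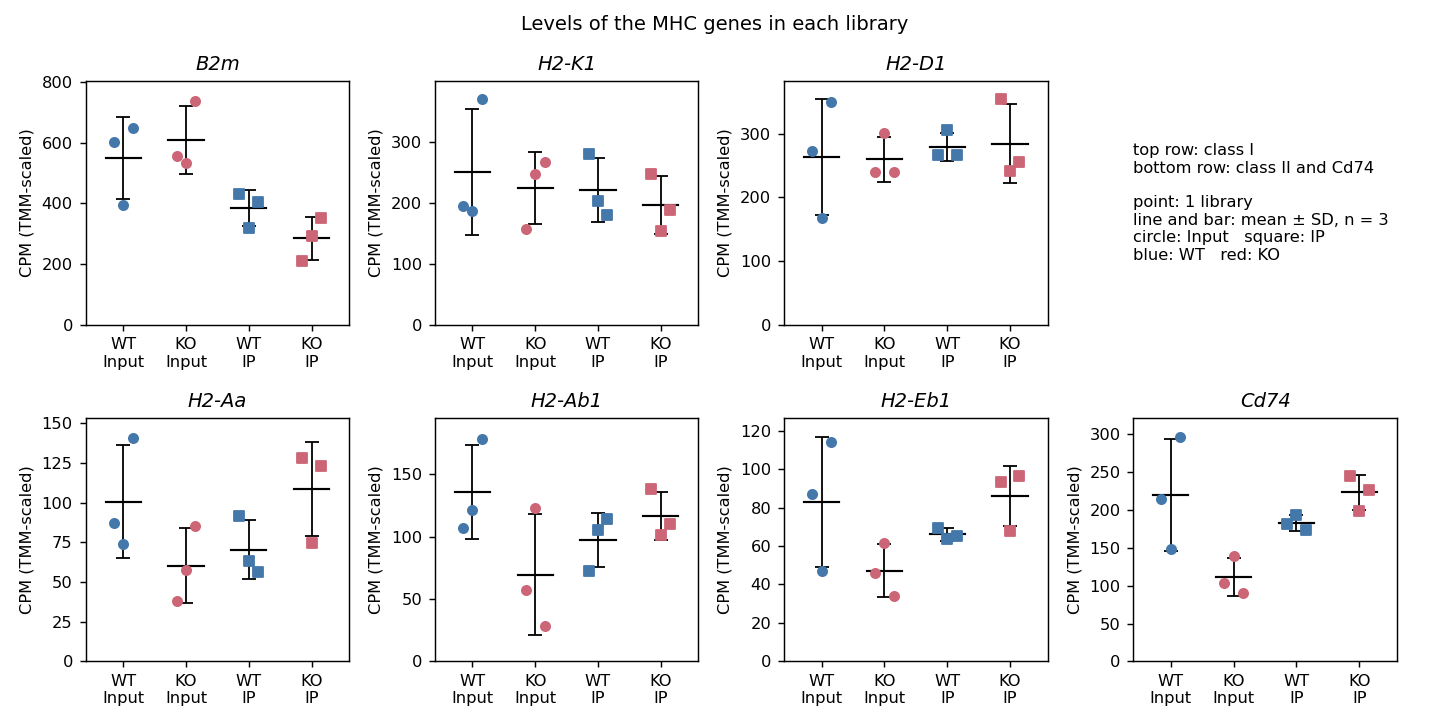
TMM-scaled CPM (vertical axes, from 0) of each of the 7 genes in the 12 libraries, by group; points are libraries, lines and bars the mean ± SD of 3. Cd74 is lower in KO Input than in WT Input and higher in KO IP than in KO Input without overlap, and B2m is lower in KO IP than in KO Input without overlap.

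Between Input and IP of KO hearts, Cd74 was higher in IP by 1.97-fold and B2m lower by 2.11-fold, the only members past an adjusted p of 0.05 in any of the 5 comparisons made. In that comparison 16.4% of all genes tested passed. The 4 class II genes had log2 differences of KO from WT between -0.94 and -0.74 in Input and between 0.25 and 0.59 in IP, with none of these 8 differences past the threshold, which 0.182% of all genes passed in Input and 0.0910% in IP. H2-K1 and H2-D1, the class I heavy chains, had log2 differences between -0.19 and 0.11 in every comparison of groups. Each test is edgeR's quasi-likelihood test on all 12 libraries, with p adjusted by Benjamini-Hochberg over the 6596 genes. The labels call the libraries biological triplicates.

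B2m, the light chain, was counted 90 to 292 times per library. It stood at 603, 395 and 648 CPM in WT Input and 556, 535 and 739 in KO Input. In IP it stood at 432, 319 and 405 CPM in WT and 210.0, 294 and 351 in KO. All 3 KO IP libraries were lower than all 3 KO Input libraries, while WT IP and WT Input overlapped. In KO the log2 difference of IP from Input was -1.08 (SE 0.21, 95% interval -1.50 to -0.65, adjusted p = 0.000704), and in WT it was -0.50 (SE 0.20, interval -0.91 to -0.09, adjusted p = 0.0929). Without WT Input replicate 2 the WT value was -0.70 and passed (adjusted p = 0.0325). The difference between these differences, the interaction, was -0.57 (SE 0.29, interval -1.16 to 0.02, adjusted p = 0.722), so the IP to Input difference of B2m was not shown to depend on genotype. Between genotypes B2m differed by 0.15 in Input (SE 0.20, interval -0.27 to 0.57) and -0.42 in IP (SE 0.20, interval -0.84 to -0.01, adjusted p = 0.943).

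B2m has the shortest transcript of the 7 genes, 860 bases against 1128 to 2102. Across all tested genes the log2 IP to Input difference changed with transcript length, and at the length of B2m the trend stood at -0.48 in WT and -0.54 in KO. With that trend subtracted, B2m differed by -0.54 between KO IP and KO Input (adjusted p = 0.0888), which ends the call. The class II chains then passed in this comparison, H2-Aa at 1.29 (adjusted p = 0.0108), H2-Ab1 at 1.02 (0.0385) and H2-Eb1 at 1.02 (0.0396). In that setting 801 of all 6596 genes passed, 357 as higher and 444 as lower. The trend lay between -0.11 and -0.41 at the lengths of the other members, and the cause of the trend was not tested.

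H2-K1 and H2-D1 give the peptide-binding heavy chain of class I. H2-K1 stood at 194, 187 and 369 CPM in WT Input, 156, 247 and 267 in KO Input, 279.8, 202 and 179.6 in WT IP, and 247, 154 and 188 in KO IP. H2-D1 stood at 272, 168 and 349 CPM in WT Input, 239.9, 300.4 and 239 in KO Input, 266, 305 and 266 in WT IP, and 355, 241 and 256 in KO IP. The 4 groups overlapped for each gene. For H2-K1 the KO minus WT difference was -0.16 on the log2 scale in Input (interval -0.71 to 0.39) and -0.19 in IP (interval -0.69 to 0.30). For H2-D1 it was 0.00 (interval -0.46 to 0.47) and 0.01 (interval -0.41 to 0.43). The intervals leave room for differences of either sign, and the direction of both genes changed with the test, the filter or the libraries used. Their transcripts are 88.4% identical over 1515 aligned columns and are 82.9% to 91.6% identical to those of H2-Q4, H2-Q6 and H2-Q7. No source used here says how reads shared by such near copies were counted, so the split between H2-K1 and H2-D1 is uncertain. H2-K1 had 96.4 ± 21.7 counts per 100 of H2-D1 in WT Input, 86.3 ± 23.7 in KO Input, 79.6 ± 22 in WT IP and 69.1 ± 4.66 in KO IP, ratios that overlapped between groups in all 4 comparisons.

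Set against its partners, B2m was the member of class I that parted from the rest in IP of KO, without overlap with Input there only. It had 129, 111 and 90.2 counts per 100 counts of H2-K1 and H2-D1 together in WT Input, and 140.4, 97.9 and 146 in KO Input. In IP the ratio was 79.1, 62.8 and 90.9 in WT and 34.9, 74.5 and 79.0 in KO. The KO IP libraries lay below the KO Input libraries without overlap, while WT IP reached 90.9 against a lowest WT Input of 90.2. The lowest value, 34.9, belongs to KO IP replicate 1. Without that library the log2 difference of B2m between KO IP and KO Input was -0.90 (adjusted p = 0.00561). The ratio takes no account of the length trend, which in KO stood at -0.54 for B2m, -0.23 for H2-K1 and -0.11 for H2-D1. With that trend removed the call of B2m in KO was lost.

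**Figure D2:**
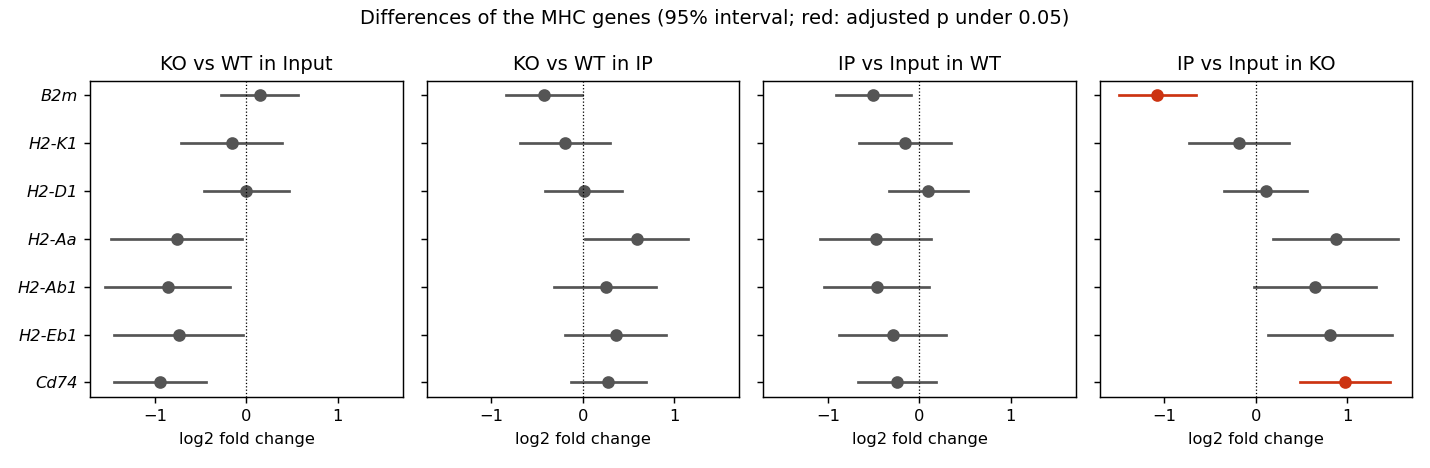
Log2 differences (horizontal axes) of the 7 genes in the 4 comparisons of groups, as edgeR estimates with 95% intervals; red marks an adjusted p under 0.05. Red are B2m at -1.08 and Cd74 at 0.98, both in KO IP against KO Input. The 4 class II genes lie left of 0 in the KO against WT Input panel and right of 0 in the KO against WT IP panel.

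Cd74, the invariant chain (ENSMUSG00000024610, GRCm38 chromosome 18 from 60803848 to 60812652, plus strand), was the most counted of the class II genes, with 16 to 152 counts per library. It stood at 214, 148 and 296 CPM in WT Input and at 103, 139 and 90.9 in KO Input. In IP it stood at 181, 194 and 174 CPM in WT and 245, 199 and 226 in KO. KO lay below WT in Input and above WT in IP, in each case without overlap, although the margin in each was small (139 against 148, and 199 against 194 CPM). Of all genes tested, 12.4% had no overlap between genotypes in Input and 10.8% in IP, in either direction.

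In KO hearts Cd74 was higher in IP than in Input by 0.98 on the log2 scale (SE 0.24, interval 0.49 to 1.47, adjusted p = 0.00494). This call held in all 18 alternative settings, with values from 0.88 to 1.28 and adjusted p from 0.000159 to 0.0351. In WT the difference was -0.24 (SE 0.21, interval -0.67 to 0.18, adjusted p = 0.475). The interaction was 1.22 (SE 0.31, interval 0.58 to 1.87). It ranked 16 among 6596 genes by p (0.00066 before adjustment) and did not pass the threshold (adjusted p = 0.247).

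Between genotypes in Input, Cd74 differed by -0.94 (SE 0.24, interval -1.45 to -0.44, 1.92-fold lower in KO), rank 28 by p (0.000697 before adjustment) with an adjusted p of 0.164. It passed the threshold without WT Input replicate 2 (-1.17, adjusted p = 0.0278) and with no filter on counts (-0.99, adjusted p = 0.0113). It was -0.59 without replicate 3 of KO Input and of WT Input (adjusted p = 0.796), the shallowest library and the WT Input library where Cd74 was highest. Over all alternatives the adjusted p ran from 0.0113 to 0.796. In IP the genotype difference was 0.28 (SE 0.20, interval -0.13 to 0.69, adjusted p = 0.981). Both genotype comparisons and both fraction comparisons share libraries, so the low KO Input values enter the KO against WT difference in Input, the IP against Input difference in KO and the interaction alike.

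H2-Aa, the alpha chain of I-A, had 10 to 74 counts per library. It stood at 87.2, 74.0 and 141 CPM in WT Input and 38.1, 57.8 and 85.2 in KO Input, overlapping. In IP it stood at 91.8, 63.4 and 56.3 CPM in WT and 128, 74.6 and 123 in KO, overlapping also. The KO minus WT difference was -0.76 in Input (SE 0.35, adjusted p = 0.676) and 0.59 in IP (SE 0.28, adjusted p = 0.943). Without WT Input replicate 3 the Input value was -0.48. IP differed from Input by 0.88 in KO (SE 0.33, interval 0.19 to 1.56, adjusted p = 0.0749) and by -0.47 in WT (SE 0.29, adjusted p = 0.299). The KO value passed without KO IP replicate 2 (1.12, adjusted p = 0.0278) and without KO Input replicate 3 (1.16, adjusted p = 0.0425). The interaction, 1.35 (SE 0.44, interval 0.44 to 2.27, adjusted p = 0.483), was the largest in size of the 7 genes.

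H2-Ab1, the beta chain that pairs with H2-Aa, stood at 107, 121 and 178 CPM in WT Input and 57.1, 123 and 28.4 in KO Input. KO Input replicate 3 holds 5 counts of it and KO Input replicate 2 holds 32, a wider spread than in the other groups. In IP it stood at 72.5, 105 and 114 CPM in WT and 138, 101 and 109.7 in KO. The KO minus WT difference was -0.86 in Input (SE 0.33, adjusted p = 0.557) and 0.25 in IP (SE 0.27, adjusted p = 0.985). The Input value moved to -1.57 without KO Input replicate 2, -0.56 without KO Input replicate 3 and -0.34 without replicate 3 of both Input groups. The IP value moved to 0.06 without WT IP replicate 1, 0.12 without KO IP replicate 1 and 0.38 without WT IP replicate 3. IP differed from Input by 0.65 in KO (SE 0.32, adjusted p = 0.187) and by -0.46 in WT (SE 0.28, adjusted p = 0.289). Without KO Input replicate 2 the KO value was 1.3 (adjusted p = 0.0192).

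H2-Eb1, the beta chain of I-E, had the lowest level of the class. It stood at 87.2, 46.9 and 114 CPM in WT Input, 45.7, 61.6 and 34.1 in KO Input, 69.6, 63.4 and 65.1 in WT IP and 93.3, 68.0 and 96.4 in KO IP. KO IP lay above KO Input without overlap, and the other comparisons overlapped. The KO minus WT difference was -0.74 in Input (SE 0.34, adjusted p = 0.676) and 0.36 in IP (SE 0.27, adjusted p = 0.983). The Input value was -0.48 without WT Input replicate 3 and -0.32 without replicate 3 of both Input groups. IP differed from Input by 0.81 in KO (SE 0.33, interval 0.14 to 1.49, adjusted p = 0.0935) and by -0.29 in WT (SE 0.28, adjusted p = 0.53). H2-Ea, the alpha chain of I-E, is not a name in the files, and its pseudogene entry H2-Ea-ps was listed at 0.

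The counts of members called are read against those of all genes. In KO against WT, 0 of 7 members passed in Input and 0 of 7 in IP, where 0.182% and 0.0910% of all tested genes passed by edgeR, and DESeq2 and limma-voom also called 0 members in each. Before adjustment p was under 0.05 for 4 members in Input, all of class II and all lower, and for 2 members in IP (B2m lower, H2-Aa higher). Over all 6596 genes it was under 0.05 for 469 genes in Input (7.11%) and 343 in IP (5.20%). In IP against Input, 0 of 7 members passed in WT (B2m alone had a p under 0.05 before adjustment, and DESeq2 and limma-voom called 0), where 14.0% of all genes did, and 2 of 7 passed in KO, where 16.4% did. Before adjustment p was under 0.05 for 27.8% of all genes in WT and, in KO, for 29.4% of them and for 4 members (B2m, H2-Aa, H2-Eb1 and Cd74). Calls in KO were thus common over all genes, with 438 genes higher in IP (6.64%) and 645 lower (9.78%), or 599 and 448 when libraries were scaled by their totals alone. That scaling shifted the median of all genes to 0.15 in this comparison and 0.12 in KO against WT IP. It gave 4 members called in KO, H2-Aa (1.01, adjusted p = 0.0422) and H2-Eb1 (0.96, adjusted p = 0.0422) besides Cd74 (1.13) and B2m (-0.95). The interaction called 0 of 7 members and 0.0910% of all genes, its p before adjustment was under 0.05 for the 4 class II genes and for 7.02% of all genes, and DESeq2 and limma-voom called 0 members. Non-overlapping libraries were common as well: 12.4% of all genes in KO against WT Input, 10.8% in IP, 34.6% in IP against Input in WT and 30.8% in KO. Among members this was seen in 1, 1, 0 and 3 genes in that order.

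The median log2 difference of the 7 members was -0.74 in KO against WT Input, 0.25 in KO against WT IP, -0.29 in IP against Input of WT and 0.65 in KO. Over all genes tested the medians were -0.01, 0.00, 0.02 and 0.01. Each median of the members is the value of a class II gene, since 4 of the 7 are of class II. In KO against WT Input the class I members stood at 0.15 (B2m), -0.16 (H2-K1) and 0.00 (H2-D1). The members were chosen with earlier results known, so these medians are descriptions.

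A ratio of counts within a library needs no scaling factor. The 4 class II genes together had 46.4, 52.0 and 53.3 counts per 100 counts of the 3 class I genes in the WT Input libraries. In KO Input they had 25.6, 35.2 and 19.2, all below WT. In WT IP they had 42.4, 51.5 and 48.2, overlapping WT Input, and in KO IP 74.4, 64.1 and 69.9, above every other library. Pooled over libraries the ratio was 50.4 in WT Input (exact 95% interval 45.5 to 55.7), 27.3 in KO Input (23.3 to 31.9), 46.8 in WT IP (42.9 to 51.0) and 68.8 in KO IP (63.2 to 74.9). These intervals cover counting error only. With 3 libraries a group no exact test can go below a two-sided p of 0.10, and the ratio was given no test because it sums members chosen with earlier results known. Part of the KO IP value lies in its divisor, since the class I genes summed to 765 ± 66.3 CPM in KO IP and 1093 ± 146 in KO Input, where B2m was higher.

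**Figure D3:**
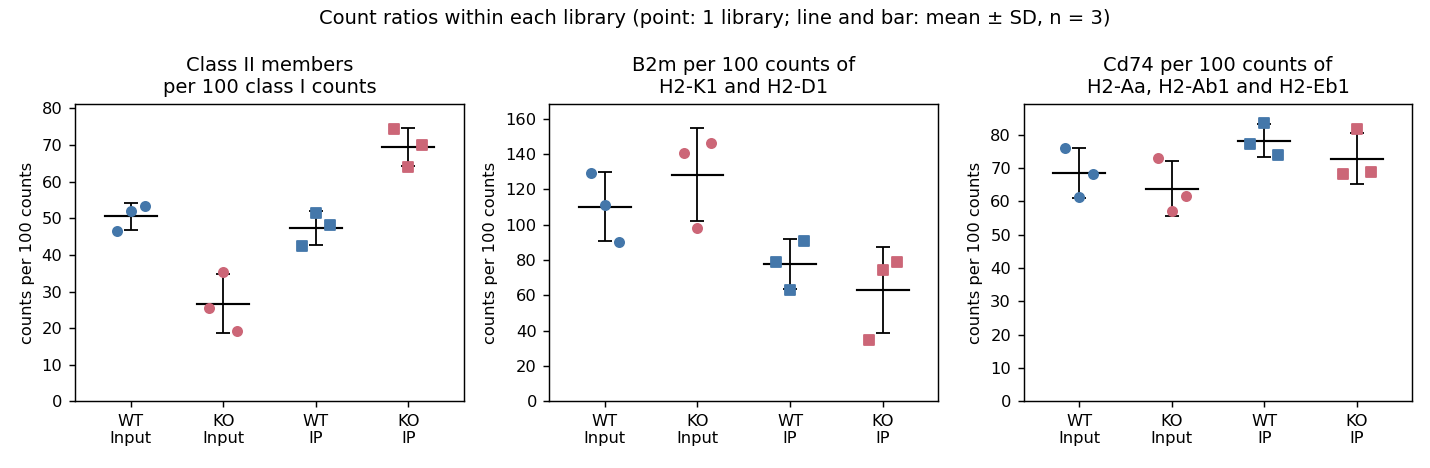
Counts of 1 set of genes per 100 counts of another within each library (vertical axes, from 0), by group; points are libraries, lines and bars the mean ± SD of 3. Class II per 100 class I is 26.7 ± 8.08 in KO Input and 69.5 ± 5.16 in KO IP, on either side of the WT groups at 50.6 ± 3.68 and 47.4 ± 4.61, while Cd74 per 100 class II chains overlaps between genotypes in each fraction and between fractions in each genotype.

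Proportions within class II were compared in the same way. Cd74 had 68.5 ± 7.45 counts per 100 counts of H2-Aa, H2-Ab1 and H2-Eb1 in WT Input, 63.9 ± 8.17 in KO Input, 78.3 ± 5.0 in WT IP and 72.9 ± 7.67 in KO IP, with overlap in all 4 comparisons. H2-Aa had 74.0 ± 11.1 counts per 100 of H2-Ab1 in WT Input, 78.8 ± 41.7 in WT IP and 93.1 ± 19.0 in KO IP, and H2-Eb1 had 61.4 ± 21.4, 71.2 ± 21.5 and 74.4 ± 11.7. In KO Input the pooled ratios were 76.9 for H2-Aa (49.6 to 118) and 65.4 for H2-Eb1 (41.1 to 103), on 52 counts of H2-Ab1 in all. Across the 12 libraries the pairs of class II genes had Pearson correlations of log2 level between 0.34 and 0.95, highest for H2-Eb1 with Cd74, and pairs of class I genes ran from -0.13 to 0.54. After the group means were subtracted the correlations did not sort by class. H2-Eb1 with Cd74 was again at 0.95, H2-Aa with H2-Ab1 was at -0.14, and H2-K1 with H2-Aa and H2-D1 with Cd74 were each at 0.93. Libraries of a group share genotype and fraction, and all genes of a library share its depth, so these are descriptions.

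Markers of the cells that carry class II molecules are given beside these values. Of 18 macrophage markers 12 were tested and none passed in any of the 5 comparisons by edgeR, DESeq2 or limma-voom. Before adjustment p was under 0.05 for 0 of them between genotypes in either fraction, and for 2 in IP against Input of WT and 1 in KO, all higher. Lyz2 stood at 311 ± 141 CPM in WT Input and 323 ± 48.7 in KO Input, and C1qa at 136 ± 47.9 and 131 ± 25.3. The summed macrophage level ran from 671 to 1145 CPM in WT Input, 881 to 1066 in KO Input, 915 to 1180.4 in WT IP and 869.9 to 1069 in KO IP. It overlapped between all groups, while the summed class II level ran from 389.6 to 729 CPM in WT Input and 239 to 381 in KO Input.

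Markers of B cells were scarce. Their sum ran from 9.86 to 43.7 CPM in WT Input, 0 to 23.1 in KO Input, 1.71 to 3.52 in WT IP and 1.31 to 23.3 in KO IP, and 0 of 9 were tested. Cd79a and Cd79b, of the B cell receptor, had 7 and 8 counts in WT Input and 0 and 2 in KO Input. The defining markers Ms4a1, Ighm, Ighd and Igkc were listed at 0 in all 12 libraries, as Actc1 was. WT Input replicate 3 was the highest WT Input library for this sum (43.7 CPM) and for summed class II (729 CPM), but also for class I (1367), macrophage (1145), adipocyte (547) and erythroid markers (165937). In KO Input replicate 2 was the highest library for both B cell markers (23.1 CPM) and class II (381 CPM). In KO IP replicate 1 was the highest for both (23.3 and 604 CPM). It was also the highest of its group for class I (812), macrophage (1069), dendritic cell (91.0) and erythroid markers (72543). It was the lowest for endothelial (3342) and smooth muscle and pericyte markers (901). In WT IP the highest library was replicate 3 for B cell markers and replicate 2 for class II, where class II ran only from 410.3 to 425 CPM. The part of B cells in the class II values was not tested.

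Dendritic cell markers summed to 36.9 to 47.4 CPM in WT Input, 26.7 to 73.9 in KO Input, 51.1 to 68.1 in WT IP and 63.2 to 91.0 in KO IP. Of 11 markers 1 was tested, Fscn1, an actin-bundling protein that other cells also make. Fscn1 was higher in IP than in Input in KO by 1.22 (SE 0.42, adjusted p = 0.0485), and it was not called by DESeq2 or limma-voom. Cd74 was called higher in the same comparison, as were 6.64% of all genes tested. In KO IP, Fscn1 (48.7 CPM) and Zbtb46 (18.2 CPM, 78 counts in all 12 libraries) held most of the mean sum of 74.9 CPM. Itgax was listed at 0, and Xcr1, Clec9a, Flt3 and Siglech had 7, 10, 2 and 2 counts in all 12 libraries. The part of dendritic cells was not tested either. In such bulk libraries fewer cells of a type and less RNA per cell cannot be told apart.

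**Figure D4:**
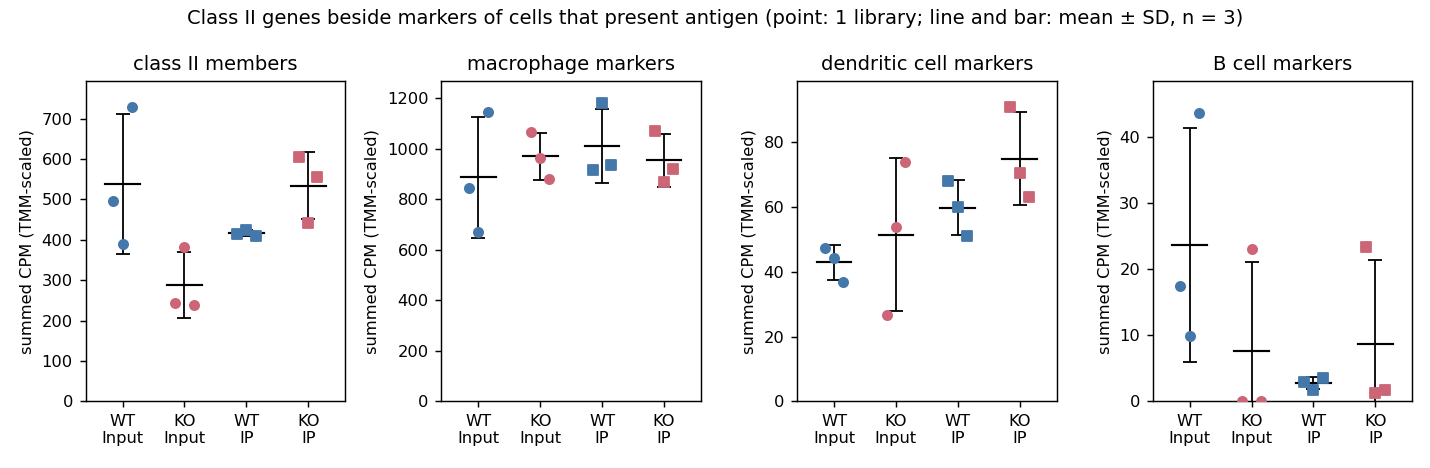
Summed TMM-scaled CPM (vertical axes, from 0, on different scales) of the 4 class II genes and of marker lists of macrophages, dendritic cells and B cells, by group; points are libraries, lines and bars the mean ± SD of 3. The class II sum is 538 ± 173 in WT Input and 288 ± 81.0 in KO Input, whereas the macrophage sum is 886 ± 240.3 and 970.0 ± 93.0.

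Markers of other cells are given for the same reason. The 17 markers of endothelial cells, which are rich in class I molecules, summed to 5062 ± 233 CPM in WT Input and 5703 ± 698 in KO Input against 3829 ± 307 and 3487 ± 126 in IP, without overlap in either genotype. Of these 17 markers 2 were higher and 6 lower in IP than in Input of KO, where B2m was lower, and 3 were higher and 3 lower in WT. Over all 6596 genes 6.64% were higher and 9.78% lower in KO, and 354 genes were higher and 572 lower in WT. Much of the sum lies in the lipid carriers Fabp4 (1864 ± 426 CPM in WT Input, 2272 ± 333 in KO Input, 1287 ± 291 in WT IP and 1085 ± 80.2 in KO IP) and Cd36 (1728 ± 198, 1835 ± 276, 1264 ± 43.6 and 1057 ± 191), whereas Flt1 and Vwf were higher in IP of both genotypes. Between genotypes none of the 17 passed by edgeR, DESeq2 or limma-voom, and p before adjustment was under 0.05 for 0 in Input and 1 in IP. The part of the lower endothelial sum in the B2m value was not tested. T and NK cell markers summed to at most 28 CPM in any library, with Cd3e, Cd8a, Trac and Trbc2 listed at 0. Adipocyte markers summed to 334 ± 209.7 CPM in WT Input and 254 ± 102 in KO Input against 28.2 ± 22.9 and 35.2 ± 13.7 in IP. Cfd, the 1 adipocyte marker tested, was lower in IP by log2 differences of -3.35 in WT and -3.13 in KO (adjusted p = 6.16e-06 and 1.41e-05). Erythroid markers ranged from 16224 to 203388 CPM over the libraries, and the 7 tested all had negative KO minus WT values in both fractions (Hbb-bs -1.26 in Input, adjusted p = 0.693, and -1.35 in IP, adjusted p = 0.943). Neutrophil markers reached 147 CPM in KO IP replicate 1 and at most 48.0 in the other libraries. KO IP replicate 1 also had the highest summed T and NK cell level (28), the highest B cell sum of its group (23.3), the highest class II sum of its group (604) and the lowest B2m ratio (34.9). Its macrophage (1069), dendritic cell (91.0) and class I sums (812) were likewise the highest of its group, and its endothelial sum (3342) the lowest. The part of these cells in the MHC values was not tested. Without KO IP replicate 1, Cd74 differed by 0.93 between KO IP and KO Input (adjusted p = 0.0148) and B2m by -0.90 (adjusted p = 0.00561).

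The rest of the presentation machinery was followed through lists written for the pathway. Of 16 other class I and class I-like genes 3 were tested and none passed in any comparison by edgeR, DESeq2 or limma-voom. Before adjustment p was under 0.05 for 1 of them in KO against WT Input and 0 in IP. That gene, H2-Q4, is named because of this value: it had 7.20 CPM in WT Input and 25.5 in KO Input (log2 difference 1.79, SE 0.65, adjusted p = 0.526), the opposite direction to the class II genes. H2-Q6, a nonclassical class I gene, stood at 15.8 ± 9.51 CPM in WT Input and 28.6 ± 12.4 in KO Input (log2 difference 0.82, SE 0.59). Fcgrt, which carries antibodies and albumin through cells, stood at 26.3 ± 11 and 21 ± 18.7 CPM. Of 7 other class II genes none was tested. H2-DMa, H2-DMb1 and H2-DMb2, which form the exchange factor that removes the Cd74 fragment, had 28, 36 and 12 counts over the 12 libraries, and H2-Oa was listed at 0.

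Of 13 genes that supply and load class I peptides, 7 were tested and 1 passed. Erap1, which trims peptides in the endoplasmic reticulum, was lower in IP than in Input, with log2 differences of -0.73 in WT (SE 0.22, adjusted p = 0.0249, not called by DESeq2) and -1.08 in KO (SE 0.23, adjusted p = 0.0016). Of the 7 genes 0 had a p under 0.05 before adjustment between genotypes in either fraction. The chaperones Canx and Calr did not pass between genotypes: Canx stood at 469 ± 63.7 CPM in WT Input and 469 ± 67.8 in KO Input, and Calr at 265 ± 15.9 and 274 ± 42.4. Tap1 and Tap2, the peptide pump, had 64 and 96 counts in all and were not tested.

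Of 8 genes of class II proteases and peptide handling, 6 were tested and 1 passed. The lysosomal protease Ctsl was lower in IP than in Input of WT, by a log2 difference of -0.59 (SE 0.17, adjusted p = 0.0219). Ctsd and Ctsb, the most counted proteases of the list, differed by 0.31 and -0.02 between genotypes in Input (adjusted p = 0.721 and 0.982). Between genotypes p before adjustment was under 0.05 for 1 of the 6 in Input and 0 in IP. This was Ctss, the protease that degrades Cd74 in antigen-presenting cells, which is named because of its values. Ctss had 37.4 CPM in WT Input, 15.3 in KO Input, 48.7 in WT IP and 36.9 in KO IP. It differed by -1.25 between KO and WT Input (SE 0.45, adjusted p = 0.526) and by 1.22 between KO IP and KO Input (SE 0.43, adjusted p = 0.0562). These were the directions of the class II genes, but both values rest on the 11 counts of Ctss in KO Input. Its mean was lower in KO IP than in WT IP and higher in WT IP than in WT Input. In those comparisons the class II genes went the other way. Ifi30, the lysosomal thiol reductase, was listed at 0.

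Of 13 transcription regulators of MHC genes 4 were tested and 1 passed. Nfyc, a subunit of the NF-Y complex that binds the Y box, was lower in IP than in Input of WT, by a log2 difference of -1.56 (SE 0.41, adjusted p = 0.0116), with 56.4 ± 16.9 CPM in WT Input, 23.6 ± 15.6 in KO Input and 19.5 in IP of each genotype. Its KO minus WT difference in Input was -1.17 (SE 0.47, adjusted p = 0.595), and its interaction 1.23 (SE 0.65, adjusted p = 0.755). Ciita, the class II co-activator, had 6 counts over the 12 libraries, too few to compare.

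Of 38 genes of interferon signalling and its targets 22 were tested, and none passed between genotypes in either fraction by edgeR, DESeq2 or limma-voom. Before adjustment p was under 0.05 for 0 of them in Input and for 2 in IP, both lower in KO. In IP against Input of WT, 1 passed as higher and 1 as lower, and in KO 1 as lower. Rsad2, an antiviral enzyme, was higher in WT IP than in WT Input by 1.84 (SE 0.53, adjusted p = 0.0212). Ifi27l2a, an interferon-induced gene, was lower in IP, with -1.07 in WT (SE 0.32, adjusted p = 0.0252) and -2.53 in KO (SE 0.35, adjusted p = 1.29e-05). DESeq2 called Ifi27l2a in KO and neither gene in WT. Ifitm3, a membrane protein that blocks virus entry, stood at 196 ± 50.8, 195 ± 23.1, 186 ± 23.6 and 189.8 ± 61.3 CPM in WT Input, KO Input, WT IP and KO IP. The median log2 difference of KO from WT over the 22 tested genes was 0.14 in Input, with 13 above 0, and -0.19 in IP, with 5 above 0.

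Genes with the library pattern most like each class were ranked by Pearson correlation of log2(CPM + 1) over the 12 libraries, among 6020 tested genes with a mean of at least 20 CPM. For the class I sum these were Coro1b (0.898), Bcl6b (0.894), Mrps26 (0.870), Tkt (0.849) and Cinp (0.827). For the class II sum they were Commd1 (0.934), Specc1l (0.932), Fip1l1 (0.894), Apopt1 (0.886) and Ice1 (0.875). With the group means subtracted, the highest were Ciao1 (0.938), Lhfp (0.919), Gm27029 (0.891), Pdgfb (0.884) and Scgb1a1 (0.882) for class I. For class II they were Ccdc9b (0.960), Hmgn5 (0.950), Commd1 (0.942), Arfgef2 (0.928) and Itpripl2 (0.912). Commd1 was the 1 gene named under both measures for class II, and both measures use the same 12 libraries. The genes were picked as the highest of 6020, so the correlations are descriptions, and shared regulation was not tested. None of these genes belongs to the lists of presentation genes above.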

How the data were processed

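Poly(A) RNA of Input and IP fractions of WT and Rpl3l-/- hearts was sequenced on a MinION as barcoded direct cDNA, per the labels' protocols. The authors deposited raw read counts per gene, 1 whole number for each of 55401 gene IDs and library. The submitters' processing notes name minimap2 2.14, DESeq2 1.34.0 and GRCm38, and no source used here gives the counting rule. Of the IDs, 55141 matched GENCODE M21, which gave names, positions and lengths, and 38803 were at 0 in every library.

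Counts were tested with edgeR 4.0.16 (R 4.3.3, limma 3.58.1). The filter was filterByExpr with a minimum count of 10 and a total of 15, TMM factors were computed and 1 mean per group fitted to all 12 libraries by quasi-likelihood, with a common dispersion of 0.0333. The contrasts were KO against WT in each fraction, IP against Input in each genotype, and their interaction, each with Benjamini-Hochberg adjustment over 6596 genes and a threshold of 0.05. Intervals are 95%. The fit was tested on simulated data.

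Alternatives were other scalings, other filters, DESeq2 1.42.0, limma-voom, fewer libraries, thinned counts, a replicate block, globin genes left out and a length trend (loess, span 0.5) removed. The genes and lists were chosen with earlier results of these data known. Genes of the lists were named where past the threshold with the smallest p, otherwise by the highest mean CPM, apart from those said to be named for their values. Replicate numbers showed no pairing of libraries: correlations of the deviations of same-numbered libraries ran from -0.115 to 0.0423, and 0 of 18 were the best match. Only Input and IP of the same genotype could share a heart, and there they ran from -0.0414 to -0.00408. Values near 0 in libraries of this depth do not exclude a shared heart.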

Additional observations from a re-analysis of the deposited data

Results flagged for a closer look

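Cd74 lay lower in every KO Input library than in every WT Input library, by a small margin (139 against 148 CPM). It lay higher in every KO IP library than in every WT IP library, again by little (199 against 194 CPM). KO IP lay above KO Input in all 3 libraries (log2 difference 0.98). Such separation, in either direction, was common over all tested genes. It was seen in 12.4% of them in KO against WT Input, 10.8% in KO against WT IP and 30.8% in KO IP against KO Input. For Cd74 in WT the IP and Input libraries overlapped. The difference there was -0.24 (interval -0.67 to 0.18), with its sign changed in 3 of 18 alternatives. EdgeR's interaction term gave 1.22 (SE 0.31) with an adjusted p of 0.247. The IP to Input difference of Cd74 was thus not shown to depend on genotype.

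Counts of the 4 class II genes per 100 counts of the 3 class I genes lay lower in every KO Input library than in every WT Input library, and higher in every KO IP library than in every WT IP library. The mean KO minus WT difference went from negative in Input to positive in IP, and the 2 differences lay 46.0 counts per 100 apart. This difference was not tested.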

How the results depend on the processing

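Of 644 values of members under alternatives, 584 kept their direction and side of the threshold, 16 passed it anew, 1 lost it and 43 changed sign, none of the last past the threshold either way. The call of B2m in KO IP against KO Input was the one lost, with the length trend removed. Members called numbered 1 in KO against WT Input and 1 in the interaction with no count filter (Cd74 in each). They numbered 1 in IP against Input of WT with only the libraries compared or thinned counts (B2m in each), and 4 in KO under library totals or with the length trend removed. Over all 6596 genes these last 2 settings called 1047 and 801 in KO. Leaving out 1 library at a time gave 0 to 1 in KO against WT Input and in IP against Input of WT (in each case 1 without WT Input replicate 2, Cd74 at an adjusted p of 0.0278 and B2m at 0.0325), and 2 to 3 in KO. In KO the gene called besides was H2-Aa without KO IP replicate 2 or KO Input replicate 3 (adjusted p = 0.0278 and 0.0425), or H2-Ab1 without KO Input replicate 2. The block on replicate number changed no call of a member and gave 2 called in KO (B2m -1.07, Cd74 0.97). Leaving out the globin genes changed no call either.

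Sign changes were nearly all of differences close to 0. The ranges below are over the fits without 1 library and the fit without replicate 3 of both Input groups. In KO against WT Input, H2-D1 was -0.04 with no count filter, -0.00 with only the libraries compared and -0.15 with thinned counts, and H2-K1 was 0.07 without replicate 3 of both groups. Left-out libraries gave ranges of -0.05 to 0.27 for B2m, -0.34 to 0.20 for H2-K1 and -0.25 to 0.29 for H2-D1. In KO against WT IP, H2-D1 was -0.01 by limma-voom, and left-out libraries gave -0.38 to 0.02 for H2-K1 and -0.17 to 0.12 for H2-D1. In IP against Input of WT, H2-D1 was -0.07 with thinned counts, H2-K1 was 0.22 and Cd74 0.02 without replicate 3 of both Input groups, and H2-K1 was 0.07 and Cd74 0.04 with the length trend removed. Left-out libraries gave -0.15 to 0.35 for H2-D1, -0.35 to 0.22 for H2-K1 and -0.47 to 0.02 for Cd74. In IP against Input of KO, H2-K1 was 0.04 with the length trend removed, and H2-D1 ran from -0.06 to 0.23. In the interaction, H2-D1 was -0.00 with median-ratio size factors, -0.09 by limma-voom, -0.02 with the replicate block and -0.29 without replicate 3 of both Input groups, and H2-K1 was 0.01 with no count filter. Left-out libraries gave -0.39 to 0.18 for H2-K1 and -0.29 to 0.25 for H2-D1. The cause of these changes was not tested.

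Over all genes, the 12 calls of KO against WT Input became 77 with no count filter and 4 without WT Input replicate 1. The 6 of KO against WT IP became 55 with no count filter and 2 without WT IP replicate 1. The 6 of the interaction became 37 with no count filter and 0 with thinned counts. The 926 in WT and 1083 in KO of IP against Input became 495 and 643 with thinned counts. The number of genes tested changed as well, from 6596 in the main fit to 16598 with no count filter and 3190 with thinned counts. It was 7108 without WT Input replicate 1 and 7113 without WT IP replicate 1. A change in these counts is therefore not a change in the share of genes called. Depth limits KO Input most, where the class II genes had 5 to 36 counts a library.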
